A study of Mus musculus with 6 samples.

Results

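Neutrophils carry their antimicrobial proteins in granules that are built in sequence as the cell matures. Primary granules are filled at the promyelocyte stage, secondary (specific) granules at the myelocyte and metamyelocyte stages, and tertiary (gelatinase) granules and secretory vesicles last. The genes of the secondary and tertiary granules are therefore switched on late, and their RNA is used as a marker of cells well along this lineage. The 7 genes described here, Camp, Ltf, Ngp, Pglyrp1, Olfm4, Retnlg and Cd177, belong to those later stages and were found by their symbols in a table of 9295 genes.

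RNA was sequenced from bone marrow of mice with acute myeloid leukemia, as bulk tissue with no sort named, and the cell type is given as leukemia. Of the 6 libraries, 3 labelled Con have the genotype PAPOLA flox/flox, in which the gene is flanked by recombination sites, and 3 labelled KO have the genotype PAPOLA KO. Papola encodes poly(A) polymerase alpha, which adds the poly(A) tail to messenger RNA, and the design asks what its loss does in this leukemia. No label states the strain, age, sex, leukemia driver or recombinase, and none says that each library is a different mouse. Should libraries share a mouse, the p-values would reflect only technical spread.

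Column totals were 11253928 to 11436212 counts in Con and 8875021 to 9768131 in KO. Papola itself had 3751, 3779 and 3642 counts in Con and 2928, 2929 and 2440 in KO. Its log2 fold change, KO less Con, was 0.22 (SE 0.08, edgeR adjusted p = 0.0291) after TMM scaling, which equalizes libraries through the bulk of their genes. With library size alone as the scaling it was negative. The counts are per gene and not per deleted exon, so they do not check the labels, and each direction below is that of the libraries labelled KO against those labelled Con. Con replicates 2 and 3 resembled each other far more than other pairs of a group did (chi-square per degree of freedom 1.68 against 17.7 to 23.7). The groups differed widely: 82% of 8358 tested genes had an adjusted p under 0.05, 39.6% being higher and 42.4% lower in KO. Higher genes were 48.3% of those called, and 35.7% when libraries were scaled by their totals alone, which also moved the median log2 fold change of all genes by -0.35.

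The bases just before the start sites of these genes are shown first, because C/EBP-epsilon and PU.1 are known regulators of granulocyte genes. RefSeq promoter sequences of build GRCm38.p6 matched all 7 genes. The 250 bases before each annotated start were searched on both strands for 4 motifs, whose letters are given with their counts after the sequences: C/EBP, PU.1, RUNX and the TATA box. Sequences are printed for the 3 genes with a C/EBP match (Ngp, Ltf and Retnlg) and for Cd177, which held the 1 TATA box match. They are written 5′ to 3′ on the strand of the gene, with matches to any of these motifs in capitals. Ngp lies at chr9:110419558-110419807 on the plus strand, Ltf at chr9:111019042-111019291 on the plus strand, Retnlg at chr16:48872358-48872607 on the plus strand, and Cd177 at chr7:24760312-24760561 on the minus strand.
Ngp: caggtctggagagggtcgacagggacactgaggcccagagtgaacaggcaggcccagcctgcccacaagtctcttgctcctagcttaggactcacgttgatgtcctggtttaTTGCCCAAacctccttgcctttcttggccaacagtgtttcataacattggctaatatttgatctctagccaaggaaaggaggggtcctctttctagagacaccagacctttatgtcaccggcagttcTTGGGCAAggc
Ltf: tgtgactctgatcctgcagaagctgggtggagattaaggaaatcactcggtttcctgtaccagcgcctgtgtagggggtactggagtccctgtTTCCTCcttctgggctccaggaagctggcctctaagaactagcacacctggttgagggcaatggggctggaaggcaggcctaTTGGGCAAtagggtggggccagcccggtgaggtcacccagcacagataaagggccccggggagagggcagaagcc
Retnlg: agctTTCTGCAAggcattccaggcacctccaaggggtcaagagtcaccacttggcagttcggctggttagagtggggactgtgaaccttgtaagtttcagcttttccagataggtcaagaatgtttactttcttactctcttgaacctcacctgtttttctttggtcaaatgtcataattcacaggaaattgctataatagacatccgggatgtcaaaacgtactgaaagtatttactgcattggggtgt
Cd177: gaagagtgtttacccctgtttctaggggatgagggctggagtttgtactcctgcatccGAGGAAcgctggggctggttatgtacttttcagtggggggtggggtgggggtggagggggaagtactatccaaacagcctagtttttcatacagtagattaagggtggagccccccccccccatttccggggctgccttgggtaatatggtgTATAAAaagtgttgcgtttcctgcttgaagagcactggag
The C/EBP letters TTGCNNAA were found before 3 of the 7 genes and before 9.56% of 32851 promoters of the same length. Ngp held them at 2 places, the nearer ending 4 bases before the start. The PU.1 letters GAGGAA were found before 4 of the 7 (Cd177, Ltf, Olfm4 and Pglyrp1) and before 23.3% of all promoters. The TATA box letters TATAAA were found before Cd177 alone of the 7 and before 12.4% of all promoters. The RUNX letters TGTGGT were found before 0 of the 7 and before 14% of all promoters. No matches to different motifs overlapped in these windows. Camp held none of the 4 in this window. The counts of matches were not tested against those of all promoters, and matching letters do not show that a factor binds.

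All 7 genes were higher in KO, beside 39.6% of all genes tested (42.4% were lower), and none of their values in one group reached into the range of the other. The 7 log2 fold changes ran from 6.75 to 12.21 with a median of 9.01, beside a median of -0.06 over all genes tested. The edgeR quasi-likelihood test gave Benjamini-Hochberg adjusted p-values of 4.79e-10 to 5.61e-09. At this background of 82% called, passing the test distinguishes the 7 little. A lack of overlap between the groups was found in 84.5% of genes, and in 40.5% with every KO value above every Con value. By size of change, 107 of 8358 genes were at or above Pglyrp1, the lowest of the 7, and the 7 are among those 107. Levels below are TMM-scaled counts-per-million (CPM) in replicates 1, 2 and 3 in that order, with fold changes from the fit and SD over n = 3 libraries.

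**Figure D1:**
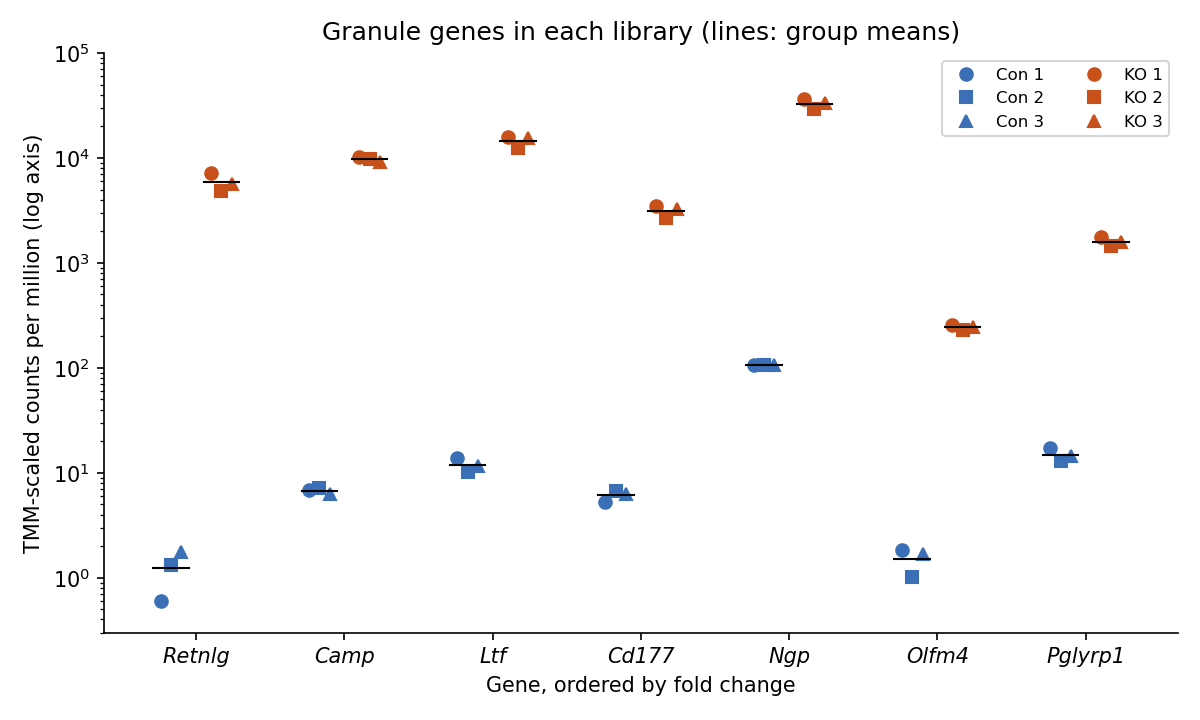
TMM-scaled CPM (log axis) of each granule gene in the 3 Con (blue) and 3 KO (orange) libraries, with black lines at the group means. Each KO value lies above each Con value of the same gene, with the widest gap for Retnlg (4738-fold) at the left and the narrowest for Pglyrp1 (108-fold) at the right.

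Camp encodes the cathelicidin precursor, from which proteases release an antimicrobial peptide that breaks microbial membranes. Its level was 6.89, 7.15 and 6.24 CPM in Con, from 91, 91 and 78 counts, and 10178, 9794 and 9082 CPM in KO. The libraries of each group lay close together, with coefficients of variation of 6.97% in Con and 5.74% in KO. The fold change was 1429 (log2 10.48, SE 0.15).

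Ltf encodes lactoferrin, which starves microbes by binding iron and is the classical marker of secondary granules. It stood at 13.7, 10.2 and 11.5 CPM in Con and at 15808, 12376 and 15568 CPM in KO. Con replicate 1 was the highest control and KO replicate 2 the lowest KO library, and the groups were far apart. The fold change was 1232 (log2 10.27, SE 0.20).

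Ngp encodes neutrophilic granule protein, a secondary granule protein of the cystatin family. It was the member with the most counts in both groups, with 1416, 1352 and 1328 counts in Con, which are 107.3, 106.2 and 106.2 CPM. In KO it reached 36557, 28995 and 33037 CPM. The Con libraries were nearly equal, with a coefficient of variation of 0.565% where counting alone gives 2.71%, while in KO it was 11.5%. The fold change was 308 (log2 8.27, SE 0.15), the fifth of the 7.

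Pglyrp1 encodes a peptidoglycan recognition protein, which binds the bacterial cell wall. Its values were 17.2, 12.9 and 14.3 CPM in Con and 1758, 1442 and 1595 CPM in KO. The groups were far apart, and the Con coefficient of variation was 14.8%, where counting alone gives 7.25%. Its fold change of 108 (log2 6.75, SE 0.15) was the smallest of the 7.

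Olfm4 encodes olfactomedin 4, a secreted glycoprotein found in the secondary granules of a subset of neutrophils. It had 24, 13 and 21 counts in Con, or 1.82, 1.02 and 1.68 CPM, and 258.5, 227.7 and 247.5 CPM in KO. KO replicate 2 was the lowest KO library and Con replicate 2 the lowest control, with no overlap of the groups. The Con coefficient of variation of 28.2% was near the 22.7% that counting gives at this depth. The fold change was 161 (log2 7.33, SE 0.16).

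Retnlg encodes a resistin-like cytokine that is abundant in mouse marrow and neutrophils. It had 8, 17 and 22 counts in Con, with exact Poisson 95% limits of 3.45 to 15.8 for the lowest and 13.8 to 33.3 for the highest. These are 0.606, 1.34 and 1.76 CPM, against 7118, 4834 and 5625 CPM in KO. The spread was the widest of the 7 in both groups, 47.3% in Con, where counting gives 25.3%, and 19.8% in KO. The fold change of 4738 (log2 12.21, SE 0.31) was the largest of the 7 and the second largest of all genes tested.

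Cd177 encodes a surface and granule membrane glycoprotein of neutrophils that binds the endothelial adhesion molecule PECAM1 and, in humans, proteinase 3. It stood at 5.23, 6.76 and 6.24 CPM in Con, from 69, 86 and 78 counts, and at 3461, 2655 and 3256 CPM in KO. Con replicate 1 was the lowest control here, unlike in Ltf and Pglyrp1. The fold change was 514 (log2 9.01, SE 0.18).

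**Figure D2:**
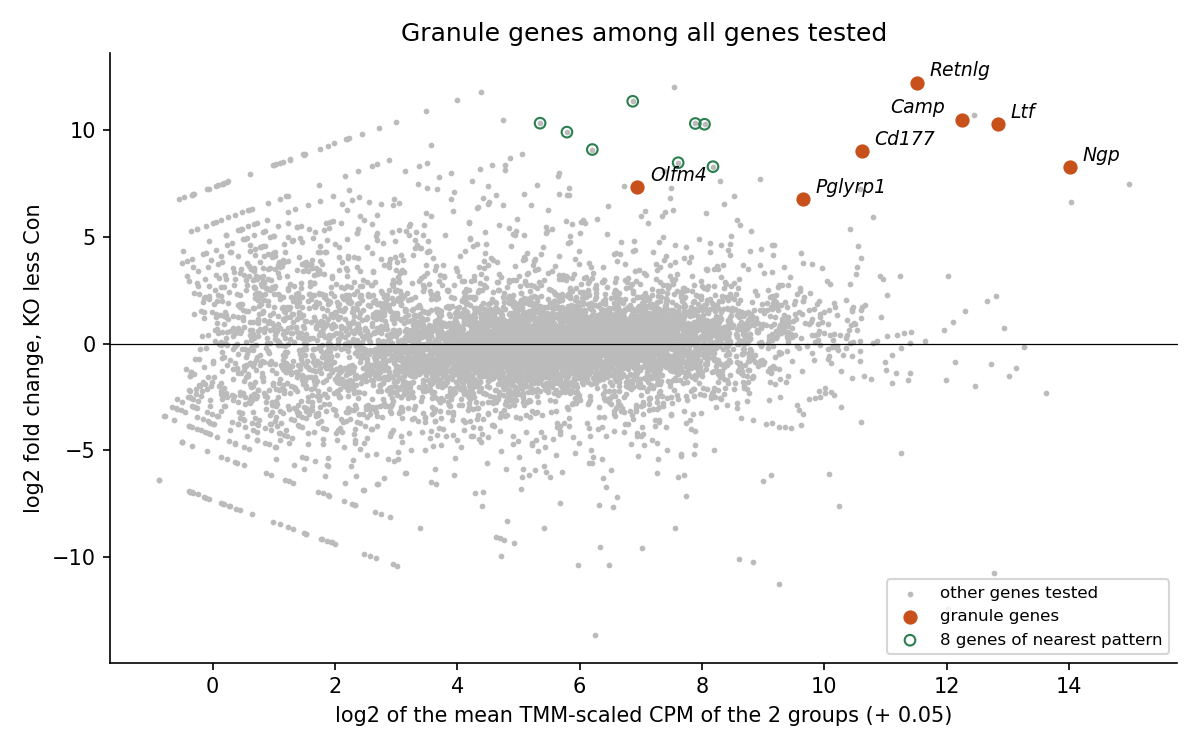
Log2 fold change, KO less Con, against the log2 of the mean level of both groups for 8358 genes tested (grey), with the 7 granule genes (orange, named) and the 8 genes whose pattern over the libraries was nearest to theirs (green rings). The 7 lie toward the top, between 6.75 and 12.21, and fitted values of genes with almost no Con counts depend on a small added prior.

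The order of the 7 fold changes was Retnlg, Camp, Ltf, Cd177, Ngp, Olfm4 and Pglyrp1. Camp and Ltf did not differ beyond their spread. Their gap was 0.21 on the log2 scale with a combined SE of 0.25, and the log2 ratio of Camp to Ltf within a library overlapped between the groups (exact two-sided permutation test, p = 0.40). In the other 5 neighbouring pairs that ratio did not overlap between Con and KO. Each gave an exact permutation p of 0.10, the smallest that 3 against 3 libraries allow, and 0.12 after Benjamini-Hochberg adjustment over the 6 pairs. The pairs were formed by sorting fold changes of the same libraries, which sets the direction of each ratio difference. These p-values are therefore no separate test of the order. The gaps were 1.73 from Retnlg to Camp, 1.26 from Ltf to Cd177, 0.74 from Cd177 to Ngp, 0.94 from Ngp to Olfm4 and 0.58 from Olfm4 to Pglyrp1.

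Between genes, levels can be set side by side only per length, here as CPM per kilobase of the longest GENCODE M21 protein-coding transcript, an annotation that may differ from the one behind the counts. On this scale Ngp led in KO with 26893 ± 3097 (SD, n = 3), followed by Camp with 12777 ± 733 and Retnlg with 9880 ± 1956. Camp and Retnlg overlapped, since KO replicate 3 of Camp (11982) lay below KO replicate 1 of Retnlg (12003). Then came Ltf with 5317 ± 698, Pglyrp1 with 2303 ± 228, Cd177 with 1151 ± 154 and Olfm4 with 87.3 ± 5.56, each apart from its neighbours in every library. The place of Ltf depends on the transcript: it has 7 annotated, of 233 to 2743 bases, and the shortest would put it first. In Con, Ngp again led with 87.2 ± 0.493 and Olfm4 was last with 0.538 ± 0.152. Pglyrp1 was second there with 21.3 ± 3.16, ahead of Camp (8.92 ± 0.621) and Ltf (4.31 ± 0.644). Cd177 (2.24 ± 0.287) and Retnlg (2.08 ± 0.984) overlapped in Con.

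Within KO the 7 genes ranked the libraries alike. KO replicate 1 held the highest TMM-scaled value of all 7, where it was highest in 33.6% of all genes tested. KO replicate 2 held the lowest of 6 of the 7 (35.5% of all genes), and Camp was lowest in KO replicate 3. The highest KO library exceeded the lowest by 1.12 times for Camp and 1.47 times for Retnlg, with the other 5 between. The 7 genes share each library, so they are not independent in this. KO replicate 1 was also highest in 11 of 12 other secondary granule genes, 8 of 9 primary granule genes and 4 of 5 tertiary granule genes, so this is not particular to the 7. The lowest library was KO replicate 2 in 8 of the 12 and 4 of the 5, and KO replicate 3 in all 9 primary granule genes, among them Mpo and Elane. In Con, replicate 1 was highest for 4 genes, replicate 2 for 2 and replicate 3 for 1.

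**Figure D3:**
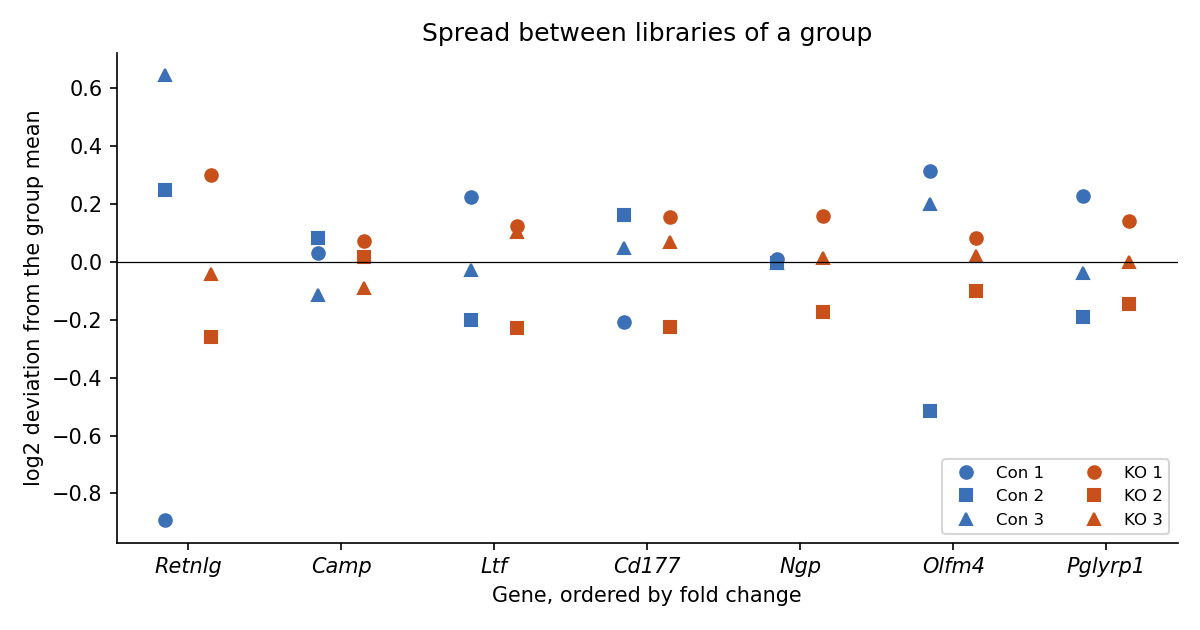
Log2 deviation of each library from the mean log2 level of its group for the 7 granule genes, Con in blue and KO in orange, with a marker shape per replicate. KO replicate 1 (circle) is the highest KO library for each gene, and the widest Con spread is that of Retnlg, with 8 counts in Con replicate 1.

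Summed, the 7 genes took 0.0179%, 0.0162% and 0.0164% of the counts of Con replicates 1, 2 and 3, and 6.58%, 5.43% and 5.99% of those of KO replicates 1, 2 and 3. All shares given here are of column totals over 9295 genes. Some genes of the lists below, such as Hbb-bs and Itgb2, are not among these, so the shares are not of whole libraries. The exact Clopper-Pearson 95% interval, which covers counting error only, was 0.0171% to 0.0187% in Con replicate 1, the highest control, and 5.41% to 5.44% in KO replicate 2, the lowest KO library. The means were 0.0168% ± 0.000898 in Con and 6% ± 0.577 in KO (SD, n = 3 each), a 356-fold ratio. The exact two-sided permutation test over libraries gave p = 0.10, the smallest possible with 3 against 3.

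The make-up of that sum also differed. Ngp gave 70.2%, 73.0% and 71.8% of it in Con and 48.6%, 48.1% and 48.3% in KO. Camp moved from 4.55% ± 0.349 to 14.3% ± 1.64, Ltf from 7.93% ± 0.989 to 21.4% ± 1.17, and Retnlg from 0.834% ± 0.403 to 8.57% ± 0.789. Pglyrp1 went the other way, from 9.93% ± 1.22 to 2.35% ± 0.0318, although its own level was higher in KO. The groups did not overlap in the part taken by any of these or by Olfm4, and they did overlap for Cd177 (4.09% ± 0.618 in Con and 4.59% ± 0.179 in KO).

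**Figure D4:**
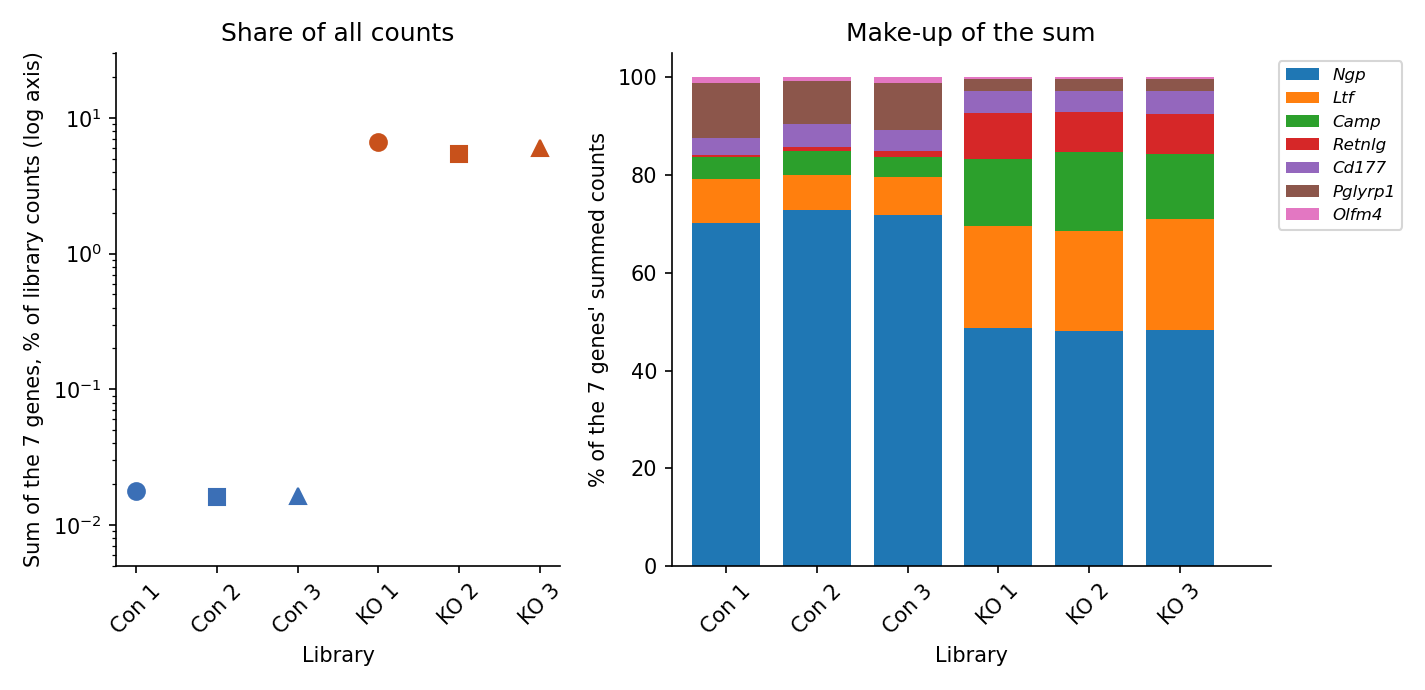
Left, the 7 granule genes' summed counts as a percentage of the column total of each library (log axis), which covers 9295 genes only. Right, each gene's part of that sum. The sum rises from under 0.018% in each Con library to over 5.4% in each KO library, and Ngp makes up about 70% to 73% of it in Con and 48% to 49% in KO.

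The remaining granule genes were mostly higher in KO too, with lower list medians than the 7. Itgb2l and Mmp9 rose by more than Pglyrp1, and Fcnb by about as much (6.82, SE 0.23, against 6.75, SE 0.15). Of 14 further genes of secondary granules or co-expressed with them, 12 were in the table and tested. Of these 10 rose, 1 fell and 1 did not pass, with a median log2 fold change of 2.56. The counts of this and the following lists stand beside 39.6% higher and 42.4% lower of all genes tested. Itgb2l, a beta-integrin gene, rose from 1.85 ± 0.497 to 578 ± 80.9 CPM (8.28, SE 0.19), and Ceacam10, which lies next to Cd177 on chromosome 7, by 5.76 (SE 0.17). Lcn2, lipocalin 2, which captures bacterial siderophores, rose from 839 ± 33.6 to 7457 ± 434 CPM (3.15, SE 0.10). The collagenase gene Mmp8 rose by 1.78 (SE 0.13) and Chil3, a chitinase-like protein gene also expressed by macrophages, by 0.72 (SE 0.13). Cst7, cystatin F, which is made by several immune cell types, fell from 225 ± 6.29 to 48.8 ± 11.3 CPM (-2.20, SE 0.15). The acute-phase gene Orm1 was at 68.8 ± 9.71 and 79.3 ± 13.2 CPM (0.21, SE 0.14, edgeR adjusted p = 0.196).

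Of 12 tertiary granule and secretory vesicle genes 5 were in the table, of which 4 rose and 1 fell (median 3.13). Mmp9, the gelatinase that names the tertiary granule, rose from 20.0 ± 4.25 to 3044 ± 323 CPM (7.25, SE 0.19). Mmp25, a membrane-bound metalloproteinase gene of the same granule, rose by 4.33 (SE 0.14), and Itgam, the integrin chain CD11b that macrophages carry as well, by 0.40 (SE 0.13). The call of Itgam was lost with library size as the scaling (0.04, edgeR adjusted p = 0.73) and without KO replicate 1 (0.0534) or KO replicate 3 (0.0548). Slc11a1, a divalent metal transporter shared with macrophages, fell from 283 ± 55.0 to 92.3 ± 14.5 CPM (-1.62, SE 0.16).

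Primary granule genes, which come earlier in the lineage, rose in 8 of 9 cases with a median of 2.74, or in 7 of 9 where the call of Ctsg, cathepsin G (0.60, SE 0.20), was lost. That was so with library size as the scaling (0.25, edgeR adjusted p = 0.304), with Con replicates 2 and 3 summed (0.063) and without Con replicate 2, Con replicate 3, KO replicate 1 or KO replicate 2 (0.0573 to 0.0665). Fcnb, ficolin B, rose from 3.13 ± 0.517 to 353 ± 86.7 CPM (6.82, SE 0.23), which is within the range of the 7. Mpo, myeloperoxidase, rose by 3.25 (SE 0.12) and Serpinb1a, an inhibitor of neutrophil serine proteases, by 2.16 (SE 0.14). Cd63, a membrane protein of primary granules and of lysosomes in many cells, fell from 1130 ± 32.5 to 459 ± 46.5 CPM (-1.30, SE 0.10).

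Of 9 transcription factor genes of the granulocyte lineage 8 rose and 1 fell, with a median of 1.92, beside 39.6% and 42.4% of all genes tested. Cebpe, whose product is needed for secondary granule gene expression, rose from 20.9 ± 0.691 to 230 ± 39.9 CPM (3.46, SE 0.14). Cebpd rose by 4.74 (SE 0.15), and Spi1, which encodes PU.1, went from 167, 185 and 193 CPM to 593, 543 and 541 CPM, a rise of 1.62 (SE 0.09). Gfi1, a repressor needed for neutrophil formation, rose by 2.37 (SE 0.15). Runx1, a core factor of blood stem and progenitor cells, fell from 156 ± 13.5 to 86.1 ± 9.86 CPM (-0.86, SE 0.11).

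All 14 genes of mature neutrophils outside the granules rose, with a median of 4.30, beside 39.6% of all genes tested. They include S100a9 (7.49, SE 0.14) and S100a8 (6.62, SE 0.18), the calprotectin subunits, of which S100a9 lies between Olfm4 and Ngp in size of change and S100a8 just below Pglyrp1. The neutrophil surface antigen gene Ly6g rose from 0.413 ± 0.263 to 526 ± 91.9 CPM (10.26, SE 0.27). Trem3 rose by 5.00 (SE 0.10) with little spread. Mrgpra2b was 2980-fold higher (95% counting interval 1020 to 14500), its 3 Con libraries holding 3 counts in all.

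**Figure D5:**
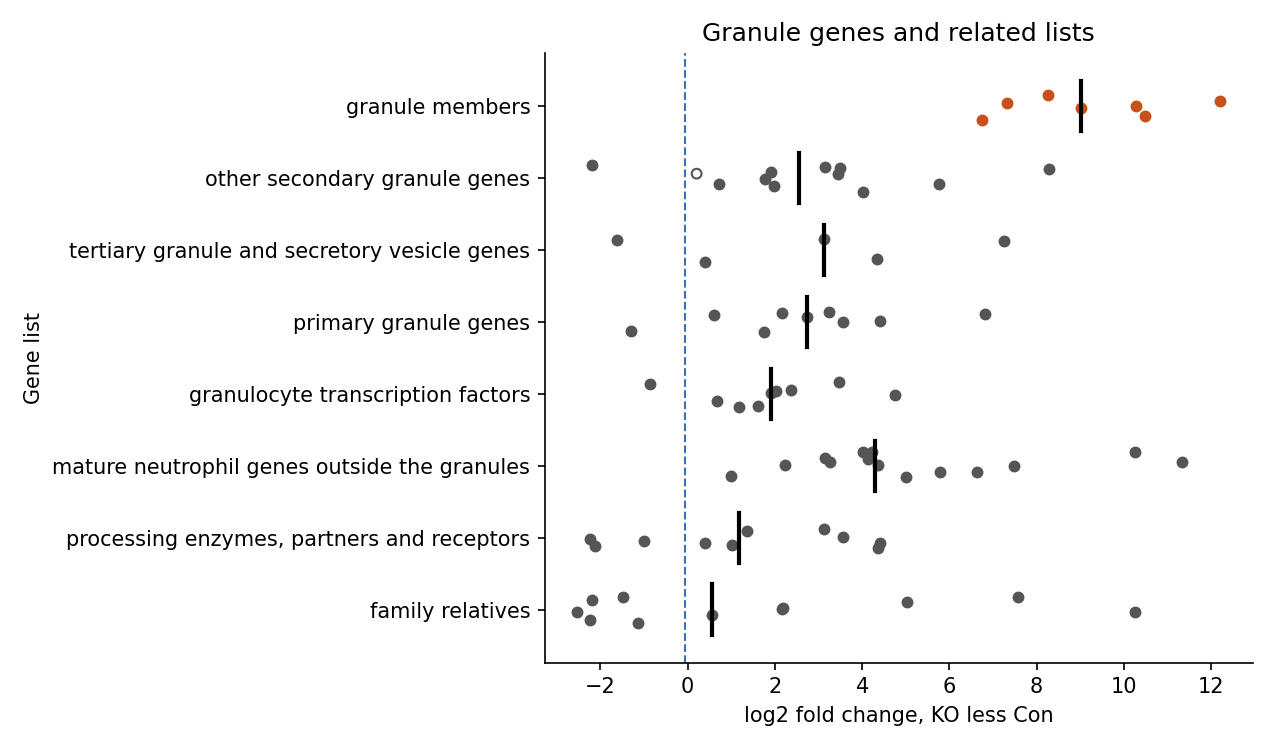
Log2 fold change, KO less Con, of each tested gene in the list of the 7 (orange) and in 7 related lists (grey), with filled points past an adjusted p of 0.05, open points not, black bars at list medians and the dashed line at the median of all genes tested. The 7 lie between 6.75 and 12.21, and the related lists each have a lower median, from 0.55 to 4.30.

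Genes that process or bind the 7 products did not move one way. Of 10 tested, 7 rose and 3 fell (median 1.18), beside 39.6% higher and 42.4% lower of all genes. Where the call of Itgam was lost, 6 rose. Elane, Prtn3, Fpr2, Itgam and Trem1 were also counted in the lists above, so this is not a separate set. Elane and Prtn3, proteases of primary granules that can cleave cathelicidins, rose by 3.57 (SE 0.20) and 4.41 (SE 0.24). Prtn3 encodes proteinase 3, which is also a partner of CD177 in humans. Fpr2, a formyl peptide receptor that responds to cathelicidin, rose from 65.1 ± 3.01 to 570 ± 64.5 CPM (3.13, SE 0.11), and Trem1, a receptor to which PGLYRP1 binds, by 4.36 (SE 0.23). Those that fell were Pecam1, the endothelial and leukocyte partner of CD177, from 371 ± 5.27 to 79.3 ± 12.7 CPM (-2.23, SE 0.11), the lactoferrin-binding scavenger receptor gene Lrp1 (-2.13, SE 0.16) and Tlr4 (-0.99, SE 0.12).

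Of 11 relatives of the 7 by family that were tested, 6 were higher and 5 lower, beside 39.6% and 42.4% of all genes. Ly6g, which was higher, and Cst7, which was lower, were also counted in the lists above. Their median of 0.55 is no stable value: it was 0.20 with library size as the scaling, where Cst3 was no longer called, 1.34 with no filter on low counts and -1.14 with the stricter filter, which test 12 and 9 of them. Trf, transferrin, the relative of lactoferrin, rose from 122 ± 5.38 to 551 ± 109 CPM (2.17, SE 0.14). Pglyrp4 had no count in Con and was at least 28.8-fold higher if the Con libraries together are given a floor of 3 counts, while Pglyrp2 fell from 12.4 ± 2.51 to 2.61 ± 0.774 CPM (-2.24, SE 0.26). Olfm1 fell by 1.48 (SE 0.21) where Olfm4 rose. Among cystatins and stefins, Stfa2l1 rose by 5.02 (SE 0.16), Stfa1 by 2.18 (SE 0.27) and Cst3 by 0.55 (SE 0.10), and Cstb (-2.53, SE 0.14), Cst7 and Stfa3 fell. Stefin genes are close copies, so reads may be split between them. Retn, resistin, was at 0.103 ± 0.0417 and 1.03 ± 0.596 CPM and was too low to be tested.

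Counts over the genomic neighbours of the 7 are read against all genes tested, of which 39.6% were higher and 42.4% lower. Camp, Ngp and Ltf lie on the same chromosome, 9. Of the nearest 2 protein-coding genes on each side of each of the 7 in RefSeq, 28 in all, 13 were tested, of which 6 rose and 3 fell (median 0.26). The largest rise was that of Ceacam10, beside Cd177, and Cdc25a, beside Camp, rose by 1.32 (SE 0.12). Ptpn23, beside Ngp, fell by 1.66 (SE 0.15), and Ccrl2, beside Ltf, by 0.60 (SE 0.17). Besides Ngp, 28 protein-coding genes lie between Camp and Ltf, an interval chosen after the values were seen. Of these 15 were tested, 7 rose and 6 fell (median -0.07). Cdc25a, Ptpn23 and other nearest neighbours inside the interval are in both counts. Neither count was tested against that background, and nothing particular to the neighbours is read from them.

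The genes whose pattern over the 6 libraries was nearest to the mean pattern of the 7 were taken by the root mean square distance of centred log2 CPM. They were Mrgpra2b (0.43), Cd163 (0.47), Siglech (0.49), Trim10 (0.51), Ly6g (0.52), Itgb2l (0.53), Alas2 (0.56) and Asprv1 (0.58). Of the 7 themselves, Cd177 was at 0.15 and Retnlg, the farthest, at 1.52, so that these 8 genes lie nearer to the mean pattern than Camp (0.67), Olfm4 (0.99), Pglyrp1 (1.20) and Retnlg do. The measure weighs the size of the difference between the groups, and nearness in it says nothing of shared function. It includes a prior count of 2, which shrinks the difference of genes with almost no Con counts. Among these were Mrgpra2b, Cd163 and Trim10, with Con means of 0.0790, 0.103 and 0.0533 CPM, so their places depend on that prior.

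Markers of other cell types moved in the same libraries, and their part in the results above was not tested. In bulk tissue, fewer cells of a type and less RNA per cell cannot be told apart. Markers outside the table were not analysed here, and shares are of the column totals. Numbers of markers higher or lower stand beside 39.6% and 42.4% of all genes tested. Erythroid markers took 0.0600% to 0.0723% of counts in Con and 1.52% to 2.18% in KO, with 10 of 11 tested higher and 1 lower. Without the lower one, Tfrc, which dividing cells of many kinds express, they took 0.00834% to 0.0158% and 1.49% to 2.16%. Monocyte and macrophage markers took 0.311% to 0.377% in Con and 0.232% to 0.304% in KO, with 6 of 10 higher and 4 lower. Cd68, one of those that fell, held 42.4% of the Con counts of that list. Without Cd68 the share was 0.181% to 0.216% in Con and 0.222% to 0.285% in KO, so its direction depended on this gene. Eosinophil markers, of cells that also carry granules, took 0.0510% to 0.0615% and 0.123% to 0.154%, with 6 of 7 higher and 0 lower. Basophil and mast cell markers went from 0.230% to 0.314% in Con to 0.0441% to 0.0654% in KO, with 7 of 7 lower. B cell markers took 0.00492% to 0.00891% and 0.00782% to 0.0212% (3 of 5 higher, 0 lower), and T and NK cell markers 0.0276% to 0.0495% and 0.00995% to 0.0129% (8 of 9 higher, 1 lower). The lower one, Gzmb, held 98.2% of the Con counts of the T and NK cell list, and without it the share was 0.000418% to 0.00105% in Con and 0.00938% to 0.0122% in KO. Megakaryocyte and platelet markers took 0.00427% to 0.00501% and 0.00958% to 0.0208% (3 of 4 higher, 0 lower), and stromal and endothelial markers 0.0423% to 0.0451% and 0.0276% to 0.0464% (5 of 6 higher, 1 lower). The lower one, Pecam1, which leukocytes express too, held 96.9% of the Con counts of the stromal list, and without it the share was 0.00105% to 0.00162% in Con and 0.0194% to 0.0401% in KO. Only Ncr1, among T and NK cell markers, had no count in Con, and none of the markers in the table had 0 in all KO libraries. Leukemia and progenitor markers took 0.0953% to 0.1% in Con and 0.110% to 0.131% in KO. Ptprc held 53.6% of the Con counts of that list. Without Ptprc the share was 0.04195% to 0.0498% in Con and 0.02889% to 0.03355% in KO, so its direction depended on this gene. Of the 7 tested 2 rose, Flt3 and Ptprc, and 4 fell, Kit, Hoxa9, Hoxa10 and Myc.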

How the data were processed

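Values in the deposited table are estimated counts per gene that the authors did not scale, with a column for each library, as read from the file headers and the values. RNA was extracted with TRIzol and made into mRNA libraries with a BGI kit, per the labels' protocols. For aligner, counter and annotation, nothing is given in the sources used here. GRCh38, a human build, is listed in the submitters' processing notes although the gene IDs are of mouse, so coordinates come only from the promoter table. Of 9295 genes, 1449 (15.6%) hold a value that is not whole, 0 of them among the 7. Values were rounded, 0 columns were unused, and 1 CPM rests on about 10 counts.

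KO was compared with Con by edgeR 4.0.16 in R 4.3.3 (TMM, filterByExpr by group, robust quasi-likelihood test, two-sided, no covariate), with Benjamini-Hochberg adjustment over 8358 genes and a threshold of 0.05. The SE is the log2 fold change over the square root of F. The fit was tested on simulated data in which few genes changed, and by less than the 7 did. That test therefore does not cover a difference between groups as wide as this. No set test was run: lists are described by counts and medians. The 7 genes, the 16 other lists, the tests and the alternatives were chosen with earlier results of these data known. Named genes are the 7, those with the 3 smallest adjusted p-values in a list and any moving against it, the 8 of nearest pattern (prior count 2) and the nearest 2 neighbours on each side, and others were named after their values were seen. Alternatives were 3 scalings, 2 filters, DESeq2 1.42.0, limma-voom (limma 3.58.1), leaving out each library, a replicate block and summing Con replicates 2 and 3.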

Additional observations from a re-analysis of the deposited data

How the results depend on the processing

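All 7 genes were called higher in KO under every alternative in which they were tested. Retnlg did not pass the stricter filter of 1 CPM in all 6 libraries, which left 6. Library size as the only scaling gave the lowest log2 fold change of each of the 7 (6.39 for Pglyrp1 to 11.86 for Retnlg), and the highest values for the 7 came from leaving out 1 library (up to 12.56 for Retnlg without Con replicate 3). The number of genes called stayed between 5848 with the stricter filter and 7215 with no filter, with 6485 to 6855 when 1 library was left out, 6967 by DESeq2, 6854 by limma-voom and 6557 with Con replicates 2 and 3 summed. The difference between groups in the summed share of the 7 was 5.98 percentage points, 5.69 to 6.27 when 1 library was left out, and 6.78 when TMM effective library sizes replaced column totals. Same-numbered libraries did not deviate together (correlations of -0.00166, 0.0277 and -0.00374). That cannot exclude a pairing of weak effect, and the labels do not say whether the numbers pair the samples. The fit with a replicate block called 6766 genes and all 7. Depth limits the Con values of Retnlg and Olfm4, which rest on 8 to 24 counts per library. Of the genes named in related lists, Itgam, Ctsg and Cst3 lost their call under some alternatives, as given beside them. Orm1, Gp9 and Myb, which were not called, changed sign with library size as the scaling.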
